A study of Homo sapiens with 3 samples.

Results

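Zinc metalloproteases of the ADAM, ADAMTS and MMP families and the tissue inhibitors of metalloproteinases (TIMPs) were followed across 3 arrays of neural cells derived from the established human embryonic stem cell line H9. The members were taken by a rule on names, set with earlier results of these data known. The rule took every probe set whose only gene symbol was ADAM, ADAMTS, MMP or TIMP followed by a number. This gave 145 probe sets of 64 genes (20 ADAM, 18 ADAMTS, 22 MMP and 4 TIMP genes), out of 41091 probe sets that carried 1 symbol and 19775 genes. The first array held neuroepithelial cells, an early neural progenitor, at day 17 of differentiation without added morphogen. The second held astrocytes at day 210 that had received retinoic acid (RA) from day 10 to day 21, and the third held astrocytes at day 210 that had received fibroblast growth factor 8 (FGF8) over the same days. All cultures began as embryoid bodies lifted off mouse feeder cells, and all came from the H9 line, so the stem cell genotype was shared. There was 1 array per group. No difference below therefore has a replicate check, a p-value or a standard error, and precision is limited by how few arrays there are.

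ADAMs are membrane proteins with a metalloprotease and an adhesion (disintegrin) domain, and several of them shed the outer parts of receptors, ligands and cell adhesion proteins. ADAMTS proteases are secreted and carry thrombospondin repeats. One branch of them cuts lecticans, the large proteoglycans of brain matrix, and another trims procollagens. MMPs cut collagens, laminins and other matrix proteins, either as secreted enzymes or anchored in the membrane, and are made as inactive precursors. TIMPs bind the active site of these enzymes, and TIMP3, which is held in the matrix, also blocks several ADAMs and ADAMTS enzymes. In the brain these families are known for remodelling the matrix around progenitors, migrating cells and synapses, and astrocytes are a known source of several of them.

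Signals are array intensities after quantile normalization of the 3 arrays. They were raised to a floor of 26.4, which is the 50th percentile over the non-control probe sets. In the comparisons, signals below it were treated as equal. The floor was a chosen limit and not a measured limit of detection. A gene counted as higher or lower at a difference of at least 2-fold (1 on the log2 scale). Where 1 of the arrays was at the floor, the difference can be larger than the value given, which is then marked by the words at least. Each gene is given by its main probe set, the brightest on average, and the other probe sets of a gene are named where they differ. Signals of different genes are not compared with each other, because probes differ in brightness. The marker sums below do add signals over genes, so bright probe sets weigh most in them.

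The labelled identities were checked against marker genes. Of 8 astrocyte markers all 8 were above the floor in both astrocyte arrays and 7 were at least 2-fold higher in each than in neuroepithelial cells; ALDH1L1, a folate enzyme of mature astrocytes, was the exception at 38.0, 45.6 and 43.4 in neuroepithelial, RA and FGF8 cells. All 6 neuroepithelial markers were above the floor at day 17, and 6 were lower in RA and 5 in FGF8 astrocytes. The cultures also differed in markers of other cells. Fibroblast and mesenchymal markers were above the floor for 7 of 7 genes at day 17, 1 of 7 in RA and 3 of 7 in FGF8 astrocytes, with summed signals of 9051, 104 and 486. All marker sums here were taken on normalized signals before the floor was applied, so they include signals below it. Epithelial and endodermal markers summed to 3323, 89.9 and 100.4, with FOXA2 and SOX17 at the floor throughout. Neuron markers summed to 16439, 14306 and 19420, mostly from TUBB3, MAP2 and, in FGF8 astrocytes, DCX. Of the 8, 1 was higher and 4 lower in RA astrocytes (STMN2, DCX, SNAP25 and ELAVL4), and 2 were higher and 2 lower in FGF8 astrocytes. Endothelial markers summed to 243, 147 and 97.5 with CDH5 and VWF at the floor throughout. Oligodendrocyte markers summed to 369, 1718 and 1239, carried by CNP, while MOG and MAG lay at the floor. Of 8 microglia markers 6 were at the floor on every array and the sums were 68.6, 111 and 72.1. In such bulk RNA, fewer cells of a type and less RNA per cell cannot be told apart. The ratio of 3' to 5' signal of ACTB, which climbs as RNA shortens, was 1.33 at day 17, 6.67 in RA and 6.63 in FGF8 astrocytes. That of GAPDH was 0.984, 1.79 and 1.65.

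Of the 64 genes, 40 were above the floor on at least 1 array and 21 on all 3. The counts were 33 in neuroepithelial cells, 30 in RA and 26 in FGF8 astrocytes, that is 51.6%, 46.9% and 40.6% of the members, against 60.4%, 61.1% and 59.9% of all genes. The 24 genes at the floor on all arrays included ADAM2, ADAM18, ADAM20, ADAM21, ADAM30 and ADAM32, several of which are known from germ cells. The others were ADAM5, ADAM8, ADAM28, ADAM33, ADAMTS8, ADAMTS17, ADAMTS19, ADAMTS20, MMP3, MMP8, MMP12, MMP13, MMP20, MMP21, MMP24, MMP26, MMP27 and MMP28. ADAM8 and MMP12 are known from macrophages and microglia, and MMP8 from neutrophils. Among these 24, ADAM33, ADAMTS8, ADAMTS17 and ADAMTS19 had another probe set above the floor. The other probe set of ADAMTS8, a lectican-cutting enzyme, read 59.6 at day 17 and lay at the floor in both astrocyte arrays, at least 2.26-fold lower. That of ADAM33, of a type that can bind related transcripts, read 61.6, 134 and 49.8.

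Position in the genome, taken from RefSeq (GRCh38.p14) for 62 members matched by gene identifier, placed several of these genes side by side. On chromosome 11 the 9 genes MMP7, MMP20, MMP27, MMP8, MMP10, MMP1, MMP3, MMP12 and MMP13 follow each other with no other protein-coding gene between them. Of these, 6 were at the floor on every array, and the other 3 stayed close to it. MMP1, an interstitial collagenase, read 33.5 at day 17 and lay at the floor in both astrocyte arrays. MMP10, a stromelysin, read 27.02 at day 17 and was also at the floor in both. MMP7, matrilysin, read 37.2 at day 17 and 40.0 in FGF8 astrocytes and lay at the floor in RA astrocytes. No member of this cluster differed by 2-fold in any comparison, and with no reading above 40.0 and a floor of 26.4 none could. With the floor at the 30th percentile, MMP1, MMP7 and MMP10 counted as lower in RA astrocytes than at day 17. In FGF8 astrocytes MMP1, MMP3 and MMP10 did, and MMP7 counted as lower in RA than in FGF8 astrocytes.

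The RefSeq promoter table held 37 promoters of 36 members. In the 250 bases before the start, the 24 promoters of members above the floor on at least 1 array had a median of 24.5 CG dinucleotides (range 2 to 40), and the 13 promoters of members at the floor on all arrays had a median of 6 (range 0 to 25). Over all genes in the table the medians were 19 and 5, so the members followed the general split. At most 3 CG dinucleotides were found in 2 of 24 and 6 of 13 member promoters, and in 11.1% and 39.7% of all promoters of the same kinds. MMP24, at the floor on all arrays, had 25, and ADAM15 and TIMP3, lower in both astrocyte arrays, had 36 and 26. The 4 sequences below are examples with many or with few CG dinucleotides. ADAM12 and ADAMTS3 were among the members with the largest differences below. MMP8 and MMP27 of the chromosome 11 cluster were at the floor on every array. The sequences are the 250 bases before the start, written 5′ to 3′ on the gene's strand in GRCh38.p14, with CG dinucleotides in capitals.
ADAM12, chr10:126388478-126388727, minus strand: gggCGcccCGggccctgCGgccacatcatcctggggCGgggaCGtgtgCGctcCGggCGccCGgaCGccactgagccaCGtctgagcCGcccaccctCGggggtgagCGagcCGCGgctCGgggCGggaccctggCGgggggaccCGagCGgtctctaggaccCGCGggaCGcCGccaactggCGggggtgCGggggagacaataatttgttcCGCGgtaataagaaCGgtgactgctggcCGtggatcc
ADAMTS3, chr4:72569222-72569471, minus strand: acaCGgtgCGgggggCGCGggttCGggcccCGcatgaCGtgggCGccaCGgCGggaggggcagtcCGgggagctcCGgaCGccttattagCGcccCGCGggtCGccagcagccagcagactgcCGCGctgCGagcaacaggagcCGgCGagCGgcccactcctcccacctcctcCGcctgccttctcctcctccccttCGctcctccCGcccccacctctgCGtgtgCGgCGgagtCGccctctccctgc
MMP8, chr11:102724955-102725204, minus strand: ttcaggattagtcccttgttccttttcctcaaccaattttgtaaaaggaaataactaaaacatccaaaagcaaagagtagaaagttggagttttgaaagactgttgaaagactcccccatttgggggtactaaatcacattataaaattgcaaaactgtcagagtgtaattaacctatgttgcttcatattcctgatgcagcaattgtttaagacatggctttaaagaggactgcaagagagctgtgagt
MMP27, chr11:102705770-102706019, minus strand: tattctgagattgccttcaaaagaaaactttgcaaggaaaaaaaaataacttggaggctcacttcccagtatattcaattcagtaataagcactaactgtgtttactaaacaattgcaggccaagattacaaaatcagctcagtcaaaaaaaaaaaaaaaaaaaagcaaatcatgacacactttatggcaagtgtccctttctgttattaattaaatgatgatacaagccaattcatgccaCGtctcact
ADAM12 has 31 CG dinucleotides in this window and a GC content of 73.6%, ADAMTS3 has 30 and 75.2%, MMP8 has 0 and 36.4%, and MMP27 has 1 and 32.8%. A CG count is a description of the window and no measure of methylation, which was not analysed here.

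**Figure D1:**
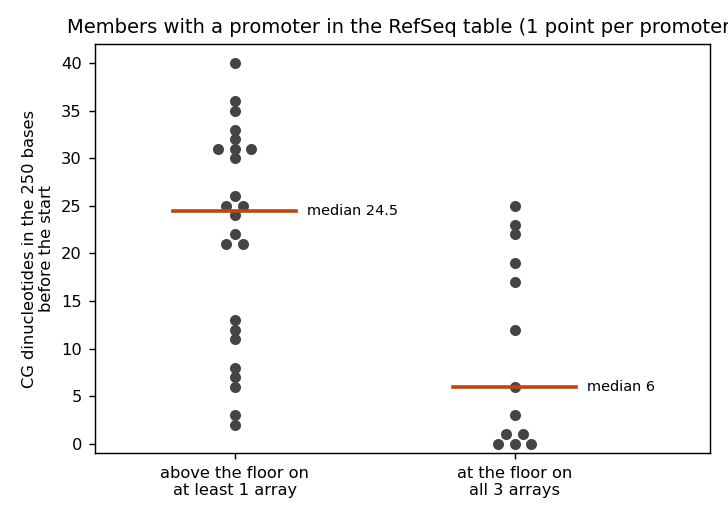
CG dinucleotides in the 250 bases before the start (y axis, count) for 37 promoters of 36 members, split by whether the gene was above the floor on at least 1 array (24 promoters) or at the floor on all 3 (13 promoters); each point is 1 promoter and red lines are medians. The medians are 24.5 and 6, and the ranges overlap.

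The element TGANTCA, a binding site of the AP-1 factors that are known to drive several MMP genes, reads as itself on the other strand. It occurred in 4 of the 37 member promoters (10.8%), those of ADAMTS12, MMP7, MMP20 and MMP10, and in 6.57% of all 35116 promoters. Members without a promoter in the table, among them MMP1, MMP3, MMP9, MMP12 and MMP13, were not searched, so nothing is said about the element in them. In MMP7 and MMP10 the first base of the element lay 67 bases before the start. The stretches around it are shown because both genes belong to the chromosome 11 cluster and read near the floor. The element is in capitals.
MMP7, chr11:102530778-102530844, minus strand: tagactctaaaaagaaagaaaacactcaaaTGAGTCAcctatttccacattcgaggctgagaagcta
MMP10, chr11:102780659-102780725, minus strand: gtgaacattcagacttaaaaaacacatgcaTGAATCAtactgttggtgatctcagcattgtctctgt
Of these 4 genes ADAMTS12 alone differed by 2-fold in a comparison. A match in letters is a description and no sign of binding.

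Against neuroepithelial cells, 15 of the 38 members that could be compared were at least 2-fold higher in RA astrocytes and 8 were lower, while 18.1% and 14.6% of all compared genes were. The corresponding shares of the members were 39.5% and 21.1%. The members' median log2 difference was 0.37, against 0.07 over all genes. In FGF8 astrocytes 9 of 36 members were higher and 9 were lower, where 12.8% and 10.2% of all genes were. The members' median there was -0.01 beside 0.05. The astrocyte comparisons share the neuroepithelial array and are not independent of each other. By family, 4 ADAM, 4 ADAMTS, 4 MMP and 3 TIMP genes were higher in RA astrocytes, and 1, 4, 2 and 1 were lower. In FGF8 astrocytes 3 ADAM, 2 ADAMTS, 3 MMP and 1 TIMP genes were higher, and 1, 6, 1 and 1 were lower. Of the 64 members, 6 were higher in both astrocyte arrays (ADAM9, ADAM12, ADAMTS3, MMP15, MMP16 and TIMP2) and 6 were lower in both (ADAM15, ADAMTS1, ADAMTS9, ADAMTS18, MMP9 and TIMP3). Of all 19775 genes, 1198 were higher in both and 1002 were lower in both. The lower members were dim to begin with. With a floor at the 70th percentile, a signal of 95.4, the lower counts became 1 (ADAMTS12) and 0, against 12 and 7 higher. With array medians set equal, the median of all genes moved to 0.35 in the RA and 0.42 in the FGF8 comparison, the higher share among all genes past 2-fold went from 55.4% to 70.8% and from 55.6% to 75.8%, and the members split 16 to 7 and 12 to 8.

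**Figure D2:**
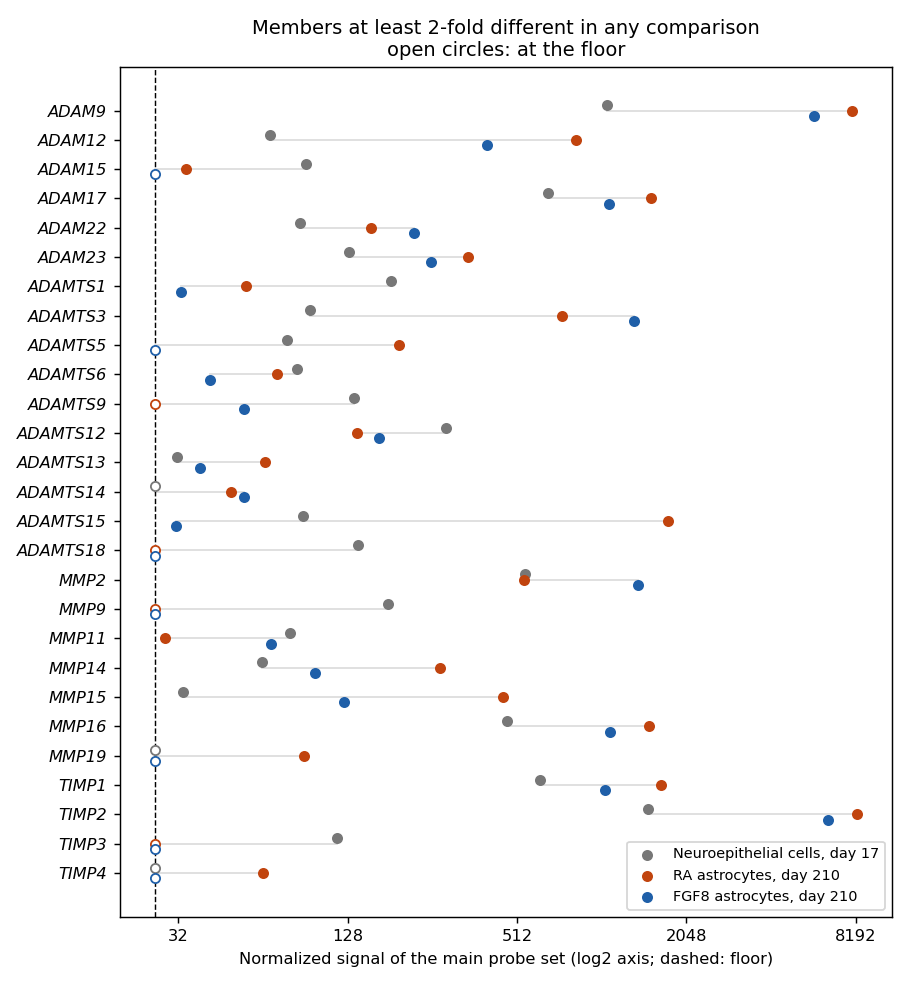
Normalized signal (x axis, log2 spacing) of the main probe set of the 27 members that differed by at least 2-fold in any comparison, with 1 point per array: neuroepithelial cells in grey, RA astrocytes in red and FGF8 astrocytes in blue. Open circles lie at the floor of 26.4 (dashed line), and the 8 members lower in RA astrocytes read between 79.6 and 286 at day 17.

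The inhibitors moved apart from each other. TIMP2, which inhibits MMPs and also helps the membrane-type enzyme MMP14 to activate MMP2, read 1495 in neuroepithelial cells, 8302 in RA astrocytes and 6522 in FGF8 astrocytes. This was 5.55-fold and 4.36-fold higher than at day 17. Its other 2 probe sets gave 5.26-fold and 11.98-fold in RA, and 4.17-fold and 7.02-fold in FGF8 astrocytes, so all 3 probe sets placed both astrocyte arrays above the progenitor. TIMP1, an inhibitor known to be induced in reactive astrocytes, read 617, 1667 and 1048 on its only probe set. It was 2.70-fold higher in RA astrocytes and 1.698-fold in FGF8 astrocytes, which is within 2-fold; with array medians set equal the FGF8 value became 1.31 on the log2 scale, past 2-fold.

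TIMP3, the matrix-bound inhibitor, went the other way. It read 117 in neuroepithelial cells and was at the floor in both astrocyte arrays, at least 4.44-fold lower. Its other 3 probe sets read 66.1, 71.5 and 231 at day 17 and were likewise at the floor in both, giving bounds of 2.51-fold, 2.71-fold and 8.75-fold. All 4 probe sets thus separated the day 17 array from both astrocyte arrays. With the floor at the 70th percentile the log2 difference shrank to a bound of -0.29, since little of the day 17 signal lay above it. TIMP4 was above the floor in RA astrocytes only, at 63.7, at least 2.42-fold higher than on either other array. The mesenchymal and epithelial marker sums given above moved in the direction of TIMP3, and the 3' to 5' ratio of ACTB was higher in both astrocyte arrays. The part of either in the difference of TIMP3 was not tested. By RefSeq coordinates TIMP1, TIMP3 and TIMP4 each lie within a synapsin gene, SYN1, SYN3 and SYN2.

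Among the ADAMs with a working protease, ADAM9 and ADAM12 stood out. ADAM9, a widely expressed sheddase, read 1069 at day 17, 7961 in RA and 5830 in FGF8 astrocytes, 7.45-fold and 5.46-fold higher. A dimmer probe set read 126, 466 and 278, and the remaining probe set, near the floor at 26.55, 28.4 and 33.5, showed no 2-fold difference. ADAM12, known from muscle and mesenchyme and able to cut insulin-like growth factor binding proteins, read 67.5, 831 and 401, 12.3-fold and 5.94-fold higher. Of its 4 other probe sets, 2 were above the floor and gave 11.5-fold and 14.1-fold in RA and 3.66-fold and 6.15-fold in FGF8 astrocytes. All 3 measured ADAM12 probe sets also placed RA above FGF8 astrocytes, by 2.07-fold, 2.29-fold and 3.14-fold. The summed signal of the mesenchymal markers was lowest in the RA array, where ADAM12 was highest, and the part of such cells in its difference was not tested.

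The main Notch and amyloid precursor sheddases gave less uniform readings. ADAM10, the constitutive alpha-secretase that also cuts Notch, N-cadherin and ephrins, read 2096, 2205 and 2080 on its main probe set, within 1.06-fold in every comparison. Its other probe sets did not follow: these read 270, 68.0 and 64.5, and 163, 61.6 and 54.7, which is 3.97-fold and 2.64-fold lower in RA and 4.19-fold and 2.98-fold lower in FGF8 astrocytes. The dimmest of the 3 is of the less specific type. With the mean of all probe sets ADAM10 counted as lower in both astrocyte arrays. The 3' to 5' ratio of ACTB was also higher in both astrocyte arrays, and its part in this split between probe sets was not tested. ADAM17, which releases tumour necrosis factor and EGF receptor ligands, read 662, 1529 and 1089 on its main probe set, 2.31-fold higher in RA and 1.64-fold in FGF8 astrocytes. Its others read 308, 398 and 337, and 138.5, 115.5 and 57.6; the last was 2.41-fold lower in FGF8 astrocytes and 1.20-fold lower in RA astrocytes. The ADAM17 probe sets did not share a direction against neuroepithelial cells. All 3 read higher in RA than in FGF8 astrocytes, by 1.40-fold, 1.18-fold and 2.01-fold.

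The remaining catalytic ADAMs were dim. ADAM15 read 90.9 at day 17 and 34.0 in RA astrocytes and was at the floor in FGF8 astrocytes, 2.67-fold and at least 3.45-fold lower. Another probe set of ADAM15 did not reach 2-fold, at 1.52-fold and at least 1.59-fold lower. ADAM6, a pseudogene and not part of this group, read 26.5 in RA astrocytes, barely above the floor of 26.4. On the other arrays ADAM6 was at the floor. ADAM19, a protease of neuregulin precursors, read 122, 165 and 83.1 and stayed within 2-fold throughout. Its RA reading lay 1.98-fold above FGF8, just short of the size used.

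**Figure D3:**
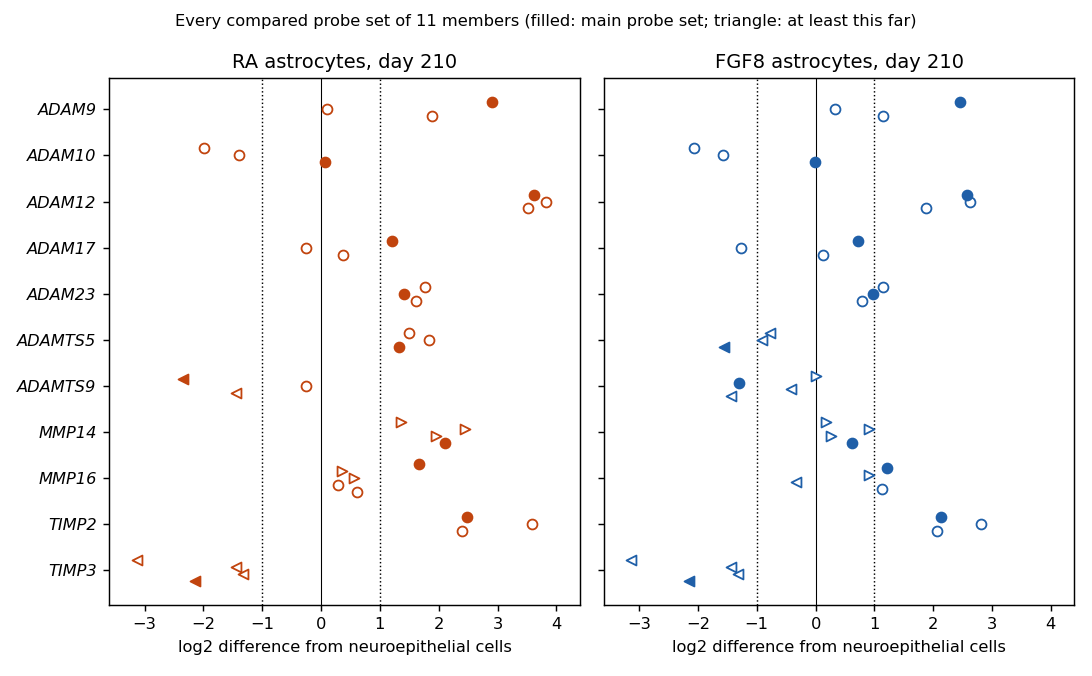
log2 difference from neuroepithelial cells (x axis) in RA astrocytes (left) and FGF8 astrocytes (right) for every compared probe set of 11 members; filled symbols are main probe sets, triangles are lower bounds with 1 side at the floor and dotted lines mark 2-fold. The probe sets of ADAM12, TIMP2 and TIMP3 lie on 1 side of 0, whereas those of ADAM10 and ADAM17 spread from near or above 0 to below it.

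ADAMs without an active protease site act as adhesion proteins, and ADAM22 and ADAM23 are synaptic receptors for the secreted protein LGI1. ADAM23 read 129 at day 17, 344 in RA and 252 in FGF8 astrocytes, 2.67-fold and 1.96-fold higher. Its 2 other measured probe sets gave 3.07-fold and 3.41-fold in RA, and 1.73-fold and 2.20-fold in FGF8 astrocytes. ADAM22 read 86.4, 155 and 221, 1.79-fold higher in RA and 2.56-fold higher in FGF8 astrocytes. Another probe set of ADAM22 read 33.8 in RA and 58.0 in FGF8 astrocytes from the floor at day 17, at least 1.28-fold and 2.20-fold higher. A further dim one lay within 2-fold, with its highest reading of 33.3 at day 17. ADAM11, another brain member of this group, read 26.5 and 35.7 in neuroepithelial and RA cells and was at the floor in FGF8 astrocytes. The partner LGI1 read 159 at day 17 and was at the floor in both astrocyte arrays, at least 6.05-fold lower.

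Among the lectican-cutting ADAMTS enzymes, ADAMTS15 and ADAMTS5 were higher in RA than in FGF8 astrocytes, ADAMTS9 was lower, and ADAMTS1 and ADAMTS4 were within 2-fold. ADAMTS15 read 89.1 at day 17, 1769 in RA astrocytes and 31.4 in FGF8 astrocytes, so it was 19.9-fold higher in the former and 2.84-fold lower in the latter. RA and FGF8 astrocytes differed by 56.3-fold, the largest difference of any member in the 3 comparisons. Its other probe set was at the floor on all arrays and could not check this. ADAMTS5, an aggrecanase, read 77.5 and 194.5 on the first pair of arrays and the floor in FGF8 astrocytes, 2.51-fold higher in RA and at least 2.94-fold lower in FGF8 astrocytes. Of its 3 other probe sets 2 were above the floor; they gave 3.58-fold and 2.83-fold higher in RA and at least 1.88-fold and 1.72-fold lower in FGF8 astrocytes. The RA array thus exceeded the FGF8 array by at least 7.38-fold, 6.73-fold and 4.85-fold on the 3 measured probe sets of ADAMTS5. Only these 2 members were higher in the one astrocyte array and lower in the other, a pattern that 45 of all 19775 genes had with RA higher. With the mean of all probe sets, neither stayed 2-fold lower in FGF8 astrocytes. That mean includes, for each gene, a probe set at the floor on all arrays.

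Of the other 5 lectican-cutting members, ADAMTS1 and ADAMTS9 were lower in both astrocyte arrays. ADAMTS1, which is induced by injury and inflammation in other settings, read 182 at day 17, 55.7 in RA and 32.7 in FGF8 astrocytes, 3.28-fold and 5.58-fold lower. Its dimmer probe set read 43.4 at day 17 and the floor in both, at least 1.64-fold lower. ADAMTS9 read 134.5 at day 17, the floor in RA and 54.5 in FGF8 astrocytes, at least 5.10-fold lower in RA and 2.47-fold lower in FGF8 astrocytes. A second probe set of ADAMTS9 was at least 2.71-fold lower in both, another was within 2-fold, and the last was above the floor in FGF8 astrocytes only, at 26.5. ADAMTS4, an aggrecanase, stayed within 2-fold at 43.6, 26.8 and 35.3. In sum 2 of the 5 compared members of this group were higher and 2 lower in RA astrocytes, against 0 higher and 4 lower in FGF8 astrocytes; the medians were -0.70 and -1.50. Over all genes 18.1% were higher and 14.6% lower in RA astrocytes, and 12.8% and 10.2% in FGF8 astrocytes. ADAMTS1 and ADAMTS5 are neighbours on chromosome 21, and ADAMTS8 and ADAMTS15 on chromosome 11. In RA astrocytes the first of each pair was lower or at the floor and the second was higher.

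Of the procollagen-trimming enzymes, ADAMTS3, which also processes the lymphatic growth factor VEGFC and cuts reelin, read 94.1 at day 17, 739 in RA and 1330 in FGF8 astrocytes. This was 7.85-fold and 14.1-fold higher on its only probe set. ADAMTS14 rested at the floor at day 17 and read 49.4 and 54.6, at least 1.87-fold and 2.07-fold higher. On the deposited scale its log2 difference in FGF8 astrocytes was 0.98, within 2-fold. ADAMTS2, the main procollagen I processing enzyme, read 30.8 and 35.9 in neuroepithelial and RA cells and was at the floor in FGF8 astrocytes. Its other probe sets disagreed, one reading 46.5 at day 17 only and another 38.9 in FGF8 astrocytes only, with no 2-fold bound.

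The other ADAMTS members had small or bounded differences. ADAMTS18 read 139 at day 17 and the floor in both astrocyte arrays, at least 5.29-fold lower, and its second probe set was at least 1.75-fold lower. ADAMTS12, known to cut cartilage oligomeric matrix protein, read 286, 138 and 165, 2.07-fold lower in RA and 1.73-fold lower in FGF8 astrocytes. ADAMTS6 read 84.2, 72.0 and 41.6, 2.03-fold lower in FGF8 astrocytes, with another probe set within 2-fold. ADAMTS13, the protease of von Willebrand factor, read 31.6, 65.2 and 38.1, 2.06-fold higher in RA astrocytes. The values of ADAMTS12, ADAMTS6 and ADAMTS13 lay close to the 2-fold limit and came within it under another scaling. For ADAMTS13 this was the deposited scale (0.64 log2), and for ADAMTS12 and ADAMTS6 it was equal array medians (-0.71 and -0.81). ADAMTS10 and ADAMTS16 were just above the floor on 1 array each, at 32.6 in RA and 37.7 in FGF8 astrocytes. A brighter probe set of ADAMTS10, of the less specific type, read 68.7, 116 and 105.

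**Figure D4:**
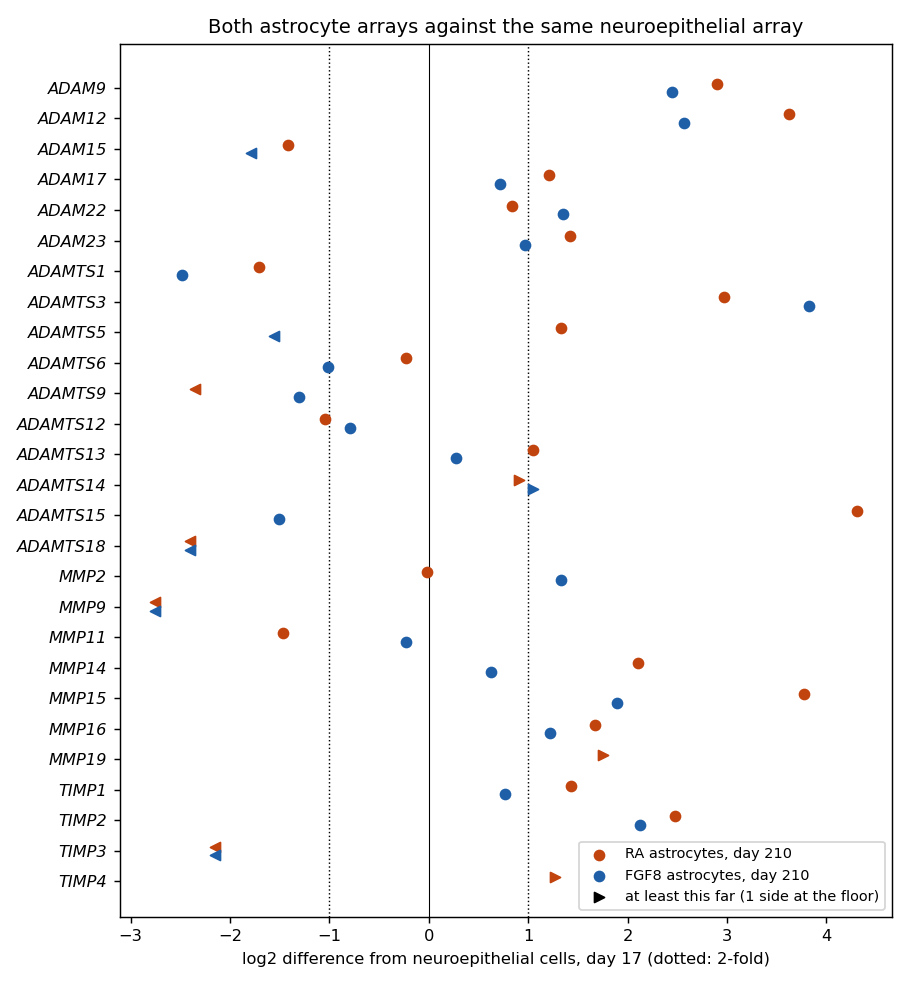
log2 difference from neuroepithelial cells (x axis) of the main probe set of the same 27 members in RA astrocytes (red) and FGF8 astrocytes (blue); triangles are lower bounds with 1 side at the floor, a missing symbol means that both sides were at the floor, and dotted lines mark 2-fold. ADAMTS5 and ADAMTS15 have symbols past 2-fold on opposite sides of 0.

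Of the 4 membrane-type MMPs that could be compared in RA astrocytes, 3 were higher and 0 lower (median 1.89), and of 5 in FGF8 astrocytes 2 were higher and 0 lower (median 0.65). Over all genes 18.1% were higher and 14.6% lower in RA astrocytes, and 12.8% and 10.2% in FGF8 astrocytes. MMP14, which activates MMP2 at the cell surface, read 63.3, 273 and 97.6, 4.31-fold higher in RA and 1.54-fold in FGF8 astrocytes. Its 3 other probe sets were at the floor at day 17 and gave at least 3.87-fold, 5.46-fold and 2.57-fold in RA astrocytes. In FGF8 astrocytes they gave at least 1.20-fold, 1.88-fold and 1.12-fold, so all 4 placed RA astrocytes highest. MMP15 read 33.3, 457 and 124, 13.7-fold and 3.72-fold higher, and its other probe set was at the floor throughout. MMP16, a membrane-type enzyme of brain, read 472, 1502 and 1096, 3.18-fold and 2.32-fold higher.

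The probe sets of MMP16 did not rank the astrocyte arrays alike. The second brightest read 96.9, 148 and 211, 1.53-fold higher in RA and 2.18-fold in FGF8 astrocytes. A further 3 lay near the floor, and 1 of them was lower in FGF8 astrocytes by at least 1.26-fold. MMP17, whose product is anchored by a lipid, read 41.3 at day 17 and the floor in both astrocyte arrays, at least 1.57-fold lower. MMP25 read 41.2 in FGF8 astrocytes and lay at the floor on the other arrays, with its second probe set above the floor at day 17 only.

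The gelatinases, which cut type IV collagen, differed from each other. MMP2 read 545 at day 17, 540 in RA and 1373 in FGF8 astrocytes, 1.01-fold lower in RA and 2.52-fold higher in FGF8 astrocytes. Its other probe sets were at the floor on all arrays. MMP9 read 178 at day 17 and was at the floor in both astrocyte arrays, at least 6.76-fold lower, on its only probe set. MMP11, a stromelysin made by stromal cells, read 79.6, 28.7 and 68.1, 2.77-fold lower in RA and 1.17-fold lower in FGF8 astrocytes. Its 3 other probe sets were at the floor. MMP19 was above the floor in RA astrocytes only, at 89.1, at least 3.38-fold higher than on either other array. Its other probe set was at the floor throughout, and with the mean of both the log2 difference was 0.88, within 2-fold. The mesenchymal and epithelial markers were also highest at day 17, and the 3' to 5' ratio of ACTB was lowest there. The part of either in the lower readings of MMP9, MMP11, ADAM15, ADAMTS1, ADAMTS9, ADAMTS12 and ADAMTS18 was not tested.

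Set directly against each other, RA astrocytes exceeded FGF8 astrocytes by at least 2-fold in 7 of 34 compared members and were lower in 3, shares of 20.6% and 8.82%, where 9.68% and 7.86% of all genes were. The 7 were ADAM12, ADAMTS5, ADAMTS15, MMP14, MMP15, MMP19 and TIMP4. MMP15 was 3.69-fold and MMP14 2.80-fold higher in RA astrocytes. The 3 were MMP2, 2.54-fold lower in RA astrocytes, MMP11, 2.37-fold lower, and ADAMTS9, at least 2.07-fold lower. The median over members was 0.44, beside 0.01 over all genes, and 23 of 34 lay above 0. With the mean of all probe sets of each gene the counts became 4 and 0. TIMP1 and TIMP2 were 1.59-fold and 1.27-fold higher in RA astrocytes, within 2-fold.

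The probe sets other than the main one were counted for members past 2-fold, leaving out the less specific type. In RA astrocytes against neuroepithelial cells 25 of 26 that could be compared had the direction of the main probe set, and 15 of them also passed 2-fold. In FGF8 astrocytes 20 of 22 had it and 11 passed. Between RA and FGF8 astrocytes 7 of 8 had it and 6 passed. The exceptions were ADAM17, ADAMTS9, MMP16 and again ADAMTS9, and none of these passed 2-fold in the opposite direction. ADAM10, and ADAM17 in FGF8 astrocytes, were not counted, because their main probe sets were within 2-fold. Their probe sets that were more than 2-fold lower, given above, are thus outside these counts. A further 12 probe sets in each comparison were at the floor on both arrays. When the probe sets of a gene were averaged, 6 calls came within 2-fold in RA astrocytes (ADAM17, ADAMTS12, ADAMTS13, MMP11, MMP16 and MMP19) and 8 in FGF8 astrocytes (ADAM22, ADAMTS5, ADAMTS6, ADAMTS9, ADAMTS15, MMP2, MMP15 and MMP16). Between RA and FGF8 astrocytes 6 did so (ADAM12, ADAMTS9, MMP2, MMP11, MMP15 and MMP19). The mean takes in probe sets at the floor on both arrays, as for MMP2, MMP11, MMP15 and MMP19. Those draw a difference towards the middle and give no reading against it.

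Other genes of the same pathways were taken from a list of 65, of which 64 were on the array. In RA astrocytes 20 of the 52 compared were higher (38.5%, beside 18.1% of all genes) and 14 lower (26.9%, beside 14.6%) than in neuroepithelial cells, with a median of 0.59. In FGF8 astrocytes 16 of 52 were higher (30.8%, beside 12.8%) and 13 lower (25%, beside 10.2%), with a median of 0.06. Between RA and FGF8 astrocytes 11 of 46 were higher (23.9%, beside 9.68%) and 6 lower in RA (13.04%, beside 7.86%), with a median of 0.25. Among inhibitors and modulators, A2M, alpha-2-macroglobulin, which traps proteases of all classes, read 72.1 at day 17, 9717.8 in RA and 8240.5 in FGF8 astrocytes. A dim second probe set of A2M read 38.1 and 48.7 at day 17 and in RA astrocytes and was at the floor in FGF8 astrocytes. RECK, a membrane-anchored inhibitor of MMPs and ADAM10, read 209, 118 and 156, within 2-fold of each other. The testican SPOCK1 was 22.3-fold lower in RA and 6.93-fold lower in FGF8 astrocytes, whereas SPOCK2, another testican, was 30.7-fold higher in RA astrocytes and 9.06-fold higher there than in FGF8 astrocytes. A second SPOCK2 probe set gave log2 differences of 1.09 for RA astrocytes against day 17 and 0.56 for RA against FGF8 astrocytes, the latter within 2-fold. Papilin, PAPLN, a matrix protein related to ADAMTS enzymes, was at least 22.9-fold higher in FGF8 astrocytes than at day 17 and 12.7-fold higher there than in RA astrocytes.

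Activators, clearance receptors and substrates also differed. FURIN, which cleaves the propeptide of many of these enzymes, read 55.9, 74.7 and 53.2, within 2-fold. The plasminogen activators PLAU and PLAT were 3.22-fold and 4.64-fold higher in RA than in FGF8 astrocytes. BSG, an inducer of MMP expression in neighbouring cells, read 1839, 638 and 304.5. The endocytic receptor MRC2, which takes up cut collagen, was 11.9-fold higher in RA astrocytes, and LRP1, which clears several MMPs and ADAMTS enzymes, was 4.80-fold higher in RA than in FGF8 astrocytes. LRP2, a related receptor of epithelia, was 30.1-fold lower in RA and at least 30.2-fold lower in FGF8 astrocytes. PAPPA, a secreted protease of insulin-like growth factor binding proteins, was at least 27.7-fold lower in both.

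Of 19 shed or cleaved substrates, 7 were higher and 3 lower in RA astrocytes, and 5 higher and 4 lower in FGF8 astrocytes. The 3 lower are 15.8% of the list, near the 14.6% of all genes. The 7 higher are 36.8% beside 18.1%, and in FGF8 astrocytes the shares were 26.3% higher beside 12.8% and 21.1% lower beside 10.2%. CD44, shed by ADAM10, ADAM17 and MMP14, was 226-fold higher in RA and 157-fold higher in FGF8 astrocytes than at day 17. The lectican NCAN was 23.5-fold higher in FGF8 astrocytes than at day 17 and 13.2-fold lower in RA than in FGF8 astrocytes. The other lecticans were within 2-fold between RA and FGF8 astrocytes: VCAN was 1.42-fold and BCAN 1.298-fold higher in RA astrocytes, and ACAN was 1.11-fold lower. The ephrin EFNA5 was at least 42.1-fold lower in RA and 6.24-fold lower in FGF8 astrocytes, and at least 6.75-fold lower in RA than in FGF8 astrocytes. LGI2, related to LGI1, was above the floor in FGF8 astrocytes only, at least 4.85-fold above RA astrocytes.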

How the data were processed

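Per the labels' protocols, RNA was extracted with Trizol and a column cleanup and labelled with biotin by a core facility on Affymetrix arrays. The authors deposited a linear intensity for each of 54675 probe sets; how probe signals were summarised is not stated in the labels or files used here. The deposited values have nearly the same mean on each array without the lowest and highest 2% (149.982, 149.979 and 149.981). Genes were taken from the platform annotation, which can be old, for probe sets with 1 symbol. Values were quantile normalized over the 3 arrays, because their 75th percentiles differed by 0.14 log2 units, raised to a floor at the median of 54613 non-control probe sets, and brought to log2. Each gene was represented by the probe set with the highest mean log2 signal before the floor, leaving out the _x_at type where another existed. With 1 array per group no test was made, and genes were counted at 2-fold. The members, lists, the rule for named genes (members past 2-fold, with the TIMPs, main sheddases and gelatinases always given) and alternatives were chosen with earlier results of these data known; the counts of CG dinucleotides and the choice of printed promoters came after seeing the values. Promoters are from RefSeq (GRCh38.p14). A planned search of protein motifs was not run. The calculation was tested on simulated data without noise, in which only bright genes were changed. Changes in dim genes, and differences with 1 side at the floor, were not simulated. Python 3.11.15, pandas 2.3.3, numpy 2.4.6 and matplotlib 3.10.9 were used.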

Additional observations from a re-analysis of the deposited data

Results flagged for a closer look

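ADAMTS5 and ADAMTS15 differed from neuroepithelial cells in opposite directions in the astrocyte cultures. The log2 difference of ADAMTS5 was 1.33 in RA astrocytes and at most -1.56 in FGF8 astrocytes, where it was at the floor. That of ADAMTS15 was 4.31 in RA astrocytes and -1.50 in FGF8 astrocytes. With 1 array per group the difference between the cultures was not tested, and both contrasts share the neuroepithelial array. With the mean of all probe sets neither gene stayed 2-fold lower in FGF8 astrocytes. That mean includes, for each gene, a probe set at the floor on all arrays.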

How the results depend on the processing

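No paired analysis was possible because each group had 1 array, and for the same reason no array could be left out. Members past 2-fold in a comparison gave 51 differences, recomputed 381 times under the scaling, floor and probe set alternatives. Of these recomputations, 345 stayed past 2-fold, 36 came within it and 0 turned sign. A lower floor or none can only keep or enlarge a difference, so those recomputations could not fail. Leaving out _x_at and _s_at probe sets changes nothing where the main probe set is of neither type. At the 70th percentile floor, differences with both arrays at the floor were dropped from the count. There 18 of 23, 13 of 18 and 6 of 10 differences remained in the 3 comparisons. The counts of members depended on the floor and the size. For RA against neuroepithelial cells, 15 higher became 24 without a floor and 7 at 4-fold, and 8 lower became 14 with the floor at the 30th percentile, 1 at the 70th, 20 without a floor, 4 without _x_at and _s_at probe sets and 4 at 4-fold. For FGF8 against neuroepithelial cells, 9 higher became 14 with the lower floor, 17 without one, 5 with the mean of all probe sets, 14 at 1.5-fold and 4 at 4-fold. In the same comparison 9 lower became 17, 0 and 25 with the lower floor, the higher floor and none, and 4 at 4-fold. For RA against FGF8 astrocytes, 7 higher became 11 with the lower floor, 17 without one, 4 with the mean of all probe sets, 12 at 1.5-fold and 2 at 4-fold, and 3 lower became 5, 1 and 10 with the lower floor, the higher floor and none, 0 with the mean, 6 at 1.5-fold and 0 at 4-fold. Fewer members could be compared with the higher floor (22, 20 and 17) and more with the lower one (56, 56 and 53). An alternative added after seeing the data, choosing the probe set after the floor was applied, kept all 51 past 2-fold. Signals near the floor limit what can be read from dim members.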
